A study of Rattus norvegicus with 14 samples.

Results

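Neurexins, neuroligins and SynCAMs are cell adhesion molecules of the synapse, and 9 of their genes were followed here: Nrxn2 and Nrxn3 (neurexins), Nlgn1, Nlgn2 and Nlgn3 (neuroligins), and Cadm1, Cadm2, Cadm3 and Cadm4 (SynCAMs). They were chosen by gene symbol from 18239 genes in the table of the neuron cultures and 31791 in that of the astrocyte cultures, and all 9 were found in both. The RNA-seq libraries came from primary hippocampal cells of embryonic day 18 Sprague Dawley rats. All cells were held in an aging-model medium (AM), with less B27 supplement for neurons and charcoal-stripped serum for astrocytes, and then received 100 nM allopregnanolone (Allo), a neurosteroid made from progesterone, or vehicle in the same medium. Neurons were kept in AM for 4 h on culture day 10 and treated for 16 h, with 0.001% ethanol as vehicle, giving 4 AM-Veh and 4 AM-Allo libraries. Astrocytes, enriched from mixed glia by shaking off other cells, were kept in AM for 24 h and treated for 24 h, giving 3 AM-Veh and 3 AM-Allo libraries. No library from cells outside AM was analysed here.

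Neurexins sit mainly on the presynaptic membrane and bind neuroligins on the postsynaptic side, and this bridge helps to organise release sites opposite receptors. Neuroligins differ in where they act: the product of Nlgn1 is found mainly at excitatory synapses and that of Nlgn2 at inhibitory ones, while that of Nlgn3 occurs at both. SynCAMs are immunoglobulin-type proteins that bind each other across the cleft, and astrocytes make several of these adhesion genes as well as neurons.

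The cultures were checked against marker genes. In the neuron cultures the 7 neuron markers found in the table summed to normalized counts of 40139 to 43824 in AM-Veh and 41767 to 47079 in AM-Allo, and the 8 astrocyte markers summed to 197153 to 256022 and 196206 to 248608. In the astrocyte cultures the astrocyte markers summed to 235704 to 248620 in AM-Veh and 234790 to 239149 in AM-Allo, and the same neuron markers to 5456 to 6005 and 5218 to 5712. Oligodendrocyte lineage markers summed to 38365 to 42775 in AM-Veh and 38502 to 45308 in AM-Allo of the neuron cultures. In astrocyte cultures they summed to 3953 to 4140 and 3917 to 4359. The libraries labelled neuron therefore carried RNA of several cell types, and values for them describe the culture. Fewer cells of a type and less RNA per cell cannot be told apart in bulk RNA. With Allo, 2 of 7 tested neuron markers were higher and 1 was lower in neuron cultures at an unadjusted p under 0.05, and 0 of 8 astrocyte markers passed, where 5.69% of all genes did. In astrocyte cultures 2 of 8 astrocyte, 1 of 4 tested neuron and 1 of 7 microglia markers were lower with Allo and none of these lists had a higher one, where 7.01% of all genes passed. Microglia markers (4 of 7 in the neuron table) summed to 20.6 to 41.4 in neuron and 1318 to 1693 in astrocyte cultures, and mesenchymal markers to 625 to 2557 and 60498 to 71815. Values for the libraries labelled astrocyte therefore describe the culture as well. Cldn5, an endothelial marker, was at 0 in all astrocyte libraries. The part of this mixture in the differences below was not tested. From the value that 1 read contributes, the libraries held roughly 19600000 to 25200000 counted fragments in neuron cultures and 22200000 to 28600000 in astrocyte cultures.

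RefSeq promoter windows of assembly GRCr8 were matched for 6 of the 9 genes: Nlgn1, Nlgn2, Nlgn3, Cadm2, Cadm3 and Cadm4. The 250 bases before the start of 3 SynCAM genes are shown because Cadm2 and Cadm3 were higher with Allo in neuron cultures and Cadm4 was not past the test. Each runs 5′ to 3′ on the strand of the gene, and capitals mark the GC box GGGCGG and the cyclic AMP response element core TGACG, searched on both strands.
Cadm2, chr11:18971887-18972136, minus strand: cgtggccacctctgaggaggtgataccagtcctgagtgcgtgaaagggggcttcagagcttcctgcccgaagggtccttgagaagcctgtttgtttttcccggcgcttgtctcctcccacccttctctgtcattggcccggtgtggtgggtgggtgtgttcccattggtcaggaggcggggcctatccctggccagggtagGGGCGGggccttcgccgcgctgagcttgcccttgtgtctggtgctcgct
Cadm3, chr13:88349719-88349968, minus strand: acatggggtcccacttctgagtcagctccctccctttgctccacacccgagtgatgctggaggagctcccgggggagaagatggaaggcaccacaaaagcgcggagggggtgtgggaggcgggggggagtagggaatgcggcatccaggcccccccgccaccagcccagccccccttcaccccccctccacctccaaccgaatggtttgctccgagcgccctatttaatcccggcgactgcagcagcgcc
Cadm4, chr1:89202839-89203088, plus strand: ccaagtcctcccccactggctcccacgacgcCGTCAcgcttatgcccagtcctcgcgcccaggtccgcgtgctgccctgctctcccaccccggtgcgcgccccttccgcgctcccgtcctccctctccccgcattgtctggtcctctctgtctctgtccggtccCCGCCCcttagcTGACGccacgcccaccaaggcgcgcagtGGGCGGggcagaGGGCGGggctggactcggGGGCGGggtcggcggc
Cadm2 held 1 GC box and 0 response element cores, Cadm3 held 0 of either, and Cadm4 held 4 GC boxes and 2 cores. Of 33469 promoter windows of this length, 30.5% held the GC box and 18.2% the core. The GC content was 63.2% for Cadm2, 66.4% for Cadm3 and 74.0% for Cadm4, against a median of 51.2% over all windows. The full element TGACGTCA was in 0 of the 3 windows and in 1.59% of all windows. These letter matches describe the windows and are not evidence of binding.

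In neuron cultures, the SynCAM genes Cadm1, Cadm2 and Cadm3 were higher with Allo at an unadjusted p under 0.05, and the other 6 genes did not pass in the fit without pairing. Cadm1 gave the largest difference of the 9, with normalized counts 17.4% higher in AM-Allo, followed by Cadm2 at 11.3% and Cadm3 at 8.18%. All 9 fitted differences were above 0, where 49.2% of all 15314 genes tested were. Their median was 0.06 on the log2 scale, against -0.0015 over all genes. The count of 3 of 9 higher stands against 3.21% of all tested genes higher and 5.69% changed in either direction. The 9 were chosen with earlier results of these data known, so this count is not independent evidence. After adjustment over all genes, 0 of the 9 passed in limma, and 0.0261% of all genes did. Because same-numbered neuron libraries deviated together, limma was also fitted with blocks. With the first digit of the replicate number as block 5 of the 9 had an unadjusted p under 0.05 (those 3, Nlgn2 and Nrxn2) and 1, Cadm1, passed adjustment, against 11.0% and 0.679% of all genes. With the whole number as block 4 of the 9 had an unadjusted p under 0.05, against 10.7% of all genes. Again only Cadm1 of the 9 passed adjustment, and 93 of the 15314 genes did. In all 4 same-numbered pairs 6 of the genes had the larger value with Allo: Nrxn2, Nlgn2, Cadm1, Cadm2, Cadm3 and Cadm4. The share of all genes with the larger value in every pair was not counted, so this count cannot be read as particular to the 9. It includes Cadm4, whose log2 difference was only 0.02.

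Cadm1, whose product is a SynCAM that promotes synapse formation in culture, had normalized counts of 2513, 2462, 2668 and 2543 in AM-Veh libraries 1-1, 1-2, 2-1 and 2-2. In AM-Allo the same-numbered libraries had 2744, 2697, 3142 and 3378. All 4 AM-Allo values exceeded the highest AM-Veh value, and the AM-Allo libraries 2-1 and 2-2 were the highest. The log2 difference was 0.23 ± 0.07 (SE, 95% interval 0.08 to 0.38), with an adjusted p of 0.650 in limma. The two-sided exact permutation test gave p = 0.0286, the smallest that 4 against 4 libraries allow. This test did not use the replicate numbers. Groups of 4 without overlap always give this value, so for them it repeats the lack of overlap.
When limma was blocked by the first digit of the replicate number, the adjusted p for Cadm1 was 0.0191, and when blocked by the whole number it was 0.0367. Under the first-digit block that adjusted p was 0.0784 if AM-Veh 2-1 was left out, 0.0600 if AM-Allo 2-1 was, and 0.0698 if AM-Allo 2-2 was. The study listed Cadm1 in a synaptogenesis group chosen on these libraries, so its direction is not independent evidence.

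Cadm2, a SynCAM expressed along axons, had 1029, 1020.2, 961 and 1009 in AM-Veh and 1104, 1059, 1093 and 1216 in AM-Allo, in the same library order. The groups did not overlap. The log2 difference was 0.15 ± 0.05 (SE), with an adjusted p of 0.671 in limma, and the exact permutation p was 0.0286. Cadm3, a SynCAM that binds other family members, had 2916, 2662, 2797 and 2607 in AM-Veh and 2936, 2782, 3071 and 3092 in AM-Allo. AM-Veh 1-1 and AM-Veh 2-1 lay above AM-Allo 1-2, so the groups overlapped. The log2 difference was 0.11 ± 0.05 (SE), with an adjusted p of 0.806 in limma and an exact permutation p of 0.0857. In the fit without a block, Cadm3 no longer passed unadjusted if any of 4 libraries was left out. The log2 difference was then 0.10 (AM-Veh 1-2), 0.09 (AM-Veh 2-2), 0.10 (AM-Allo 2-1) or 0.09 (AM-Allo 2-2). Cadm3 did not pass without the limma trend either. It passed unadjusted with either block, with adjusted p-values of 0.298 for the first digit and 0.271 for the whole number in limma. Cadm4, the SynCAM known from myelinating glia and their contacts with axons, had 8384, 8307, 8049 and 8028 in AM-Veh and 8595, 8368, 8188 and 8089 in AM-Allo. Its log2 difference was 0.02, with a 95% interval of -0.05 to 0.09 and an exact permutation p of 0.457.

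Of the neuroligins, Nlgn2, the member of inhibitory synapses, had 5515, 5442, 5382 and 5537 in AM-Veh and 5789, 5615, 5618 and 5657 in AM-Allo. The groups did not overlap, and the AM-Allo mean was 3.67% higher. The log2 difference was 0.05 ± 0.03 (SE) and the exact permutation p was 0.0286. It did not pass unadjusted in limma, passed with the first-digit block (adjusted p = 0.443) and did not with the whole-number block (adjusted p = 0.475). Groups that did not overlap were found in 3 of the 9 genes (Cadm1, Cadm2 and Nlgn2) and in 3.95% of all genes. Nlgn1, the member of excitatory synapses, had 2179, 2208, 2113 and 2060.4 in AM-Veh and 2291, 2313, 2059.8 and 1978 in AM-Allo. The AM-Allo libraries of Nlgn1 lay both above and below AM-Veh, and its log2 difference was 0.01, with a 95% interval of -0.11 to 0.13 and an exact permutation p of 0.914. Nlgn3 had 6973, 7066, 6524 and 6495 in AM-Veh and 7459, 7241, 6742 and 6401 in AM-Allo. Its log2 difference was 0.04, with a 95% interval of -0.07 to 0.15 and an exact permutation p of 0.486.

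Of the neurexins, Nrxn2 had 16519.6, 16893, 16788 and 17410.1 in AM-Veh and 17218, 16965, 18518 and 17874 in AM-Allo. The groups overlapped, and the log2 difference was 0.06 ± 0.03 (SE) with an exact permutation p of 0.143. It passed unadjusted with either block, with adjusted p-values of 0.334 for the first digit and 0.398 for the whole number in limma. The study placed Nrxn2 in the same list as Cadm1. Nrxn3 was lower in count, at 395, 359.9, 455 and 404 in AM-Veh and 408, 351, 488 and 473 in AM-Allo, and its log2 difference was 0.08 with a 95% interval of -0.16 to 0.33 and an exact permutation p of 0.486.

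**Figure D1:**
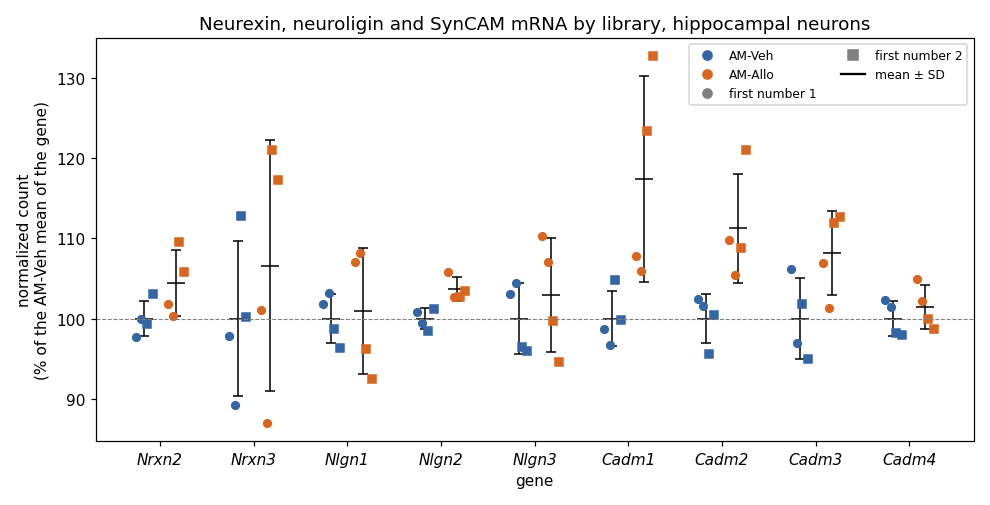
Normalized counts of the 9 genes in each neuron library, as a percent of the gene's AM-Veh mean (blue AM-Veh, orange AM-Allo, circles libraries numbered 1-1 and 1-2, squares 2-1 and 2-2, bars mean ± SD of 4). The 4 AM-Allo libraries of Cadm1, Cadm2 and Nlgn2 sit above all 4 AM-Veh libraries.

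In astrocyte cultures, 8 of the 9 genes had a mean of at least 10 and were tested, and 0 of the 8 passed p under 0.05 in limma, against 7.01% of all genes in either direction and 3.72% higher. Of all genes, 0.00650% passed adjustment and 12.5% had groups without overlap. None of the 8 had groups without overlap. The fitted differences were above 0 in 5 genes and below 0 in 3, where 50.7% of all genes were above 0. Their median was 0.02 against 0.0014 over all genes. Nrxn3 was listed at 4.4 to 8.26 in the 6 astrocyte libraries and was left out of the test.

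Cadm3 had 1923, 1846 and 2001 in AM-Veh libraries 1, 2 and 3 of the astrocytes and 1769.7, 1859 and 1803 in AM-Allo. The AM-Allo library 2 lay within the AM-Veh range, and the log2 difference was -0.09 with a 95% interval of -0.18 to 0.01 and an exact permutation p of 0.2, where 3 against 3 libraries allow no less than 0.1. Nlgn1 had 1113, 1128 and 1069 in AM-Veh and 997, 986 and 1114 in AM-Allo, with a log2 difference of -0.10 (95% interval -0.22 to 0.02) and an exact permutation p of 0.3. Cadm1 had 4455, 4607 and 4599.9 in AM-Veh and 4647, 4504 and 4678 in AM-Allo, and its groups overlapped, with a log2 difference of 0.02 (95% interval -0.06 to 0.09). Cadm2 had 533, 584 and 527 in AM-Veh and 566, 552 and 615 in AM-Allo, with a log2 difference of 0.08 (95% interval -0.07 to 0.22).
The remaining 4 tested genes, Nrxn2, Nlgn2, Nlgn3 and Cadm4, had log2 differences of 0.03, 0.01, -0.06 and 0.05. The count of 0 rose to 1 without AM-Veh 2 (Cadm3), to 2 without AM-Allo 2 (Cadm3 and Nlgn3) and to 2 without AM-Allo 3 (Nlgn1 and Cadm4). The difference of Allo effects between neuron and astrocyte cultures was not tested.

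**Figure D2:**
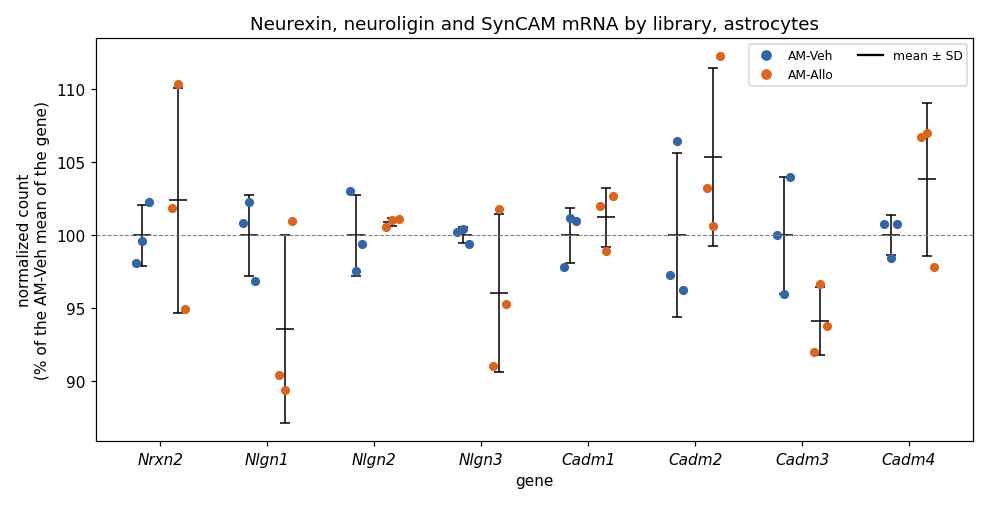
Normalized counts of the 8 tested genes in each astrocyte library, as a percent of the gene's AM-Veh mean (blue AM-Veh, orange AM-Allo, bars mean ± SD of 3). The groups overlap in all 8 genes.

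**Figure D3:**
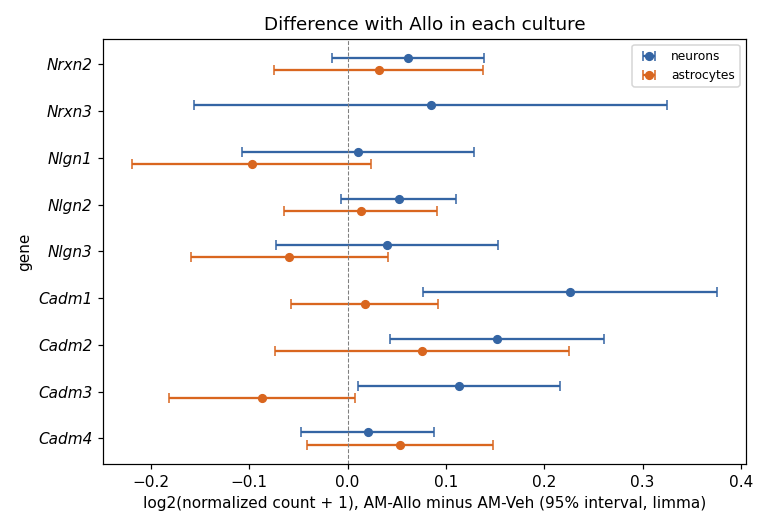
Difference between AM-Allo and AM-Veh on the log2(normalized count + 1) scale with its 95% interval, for neuron and astrocyte cultures. The intervals are from the limma fit without a block. Those of Cadm1, Cadm2 and Cadm3 in neuron cultures are above 0, and all others cross 0. With the first-digit block, not drawn, Nrxn2 and Nlgn2 in neuron cultures also had an unadjusted p under 0.05.

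The neuron libraries carry a 2-part replicate number, and the meaning of its first digit is not given in the labels. Between libraries whose number begins with 2 (number 2) and those that begin with 1 (number 1), 6 of the 9 had p under 0.05 in limma, 3 higher and 3 lower in number 2, against 29.3% of all genes in either direction and 15.3% higher. After adjustment 4 of the 9 passed, against 17.2% of all genes. Nlgn3 had means of 7185 ± 214 (SD, n = 4) in number 1 and 6540.4 ± 144 in number 2, with no overlap, a log2 difference of -0.14 ± 0.03 (SE) and an adjusted p of 0.00147 in limma. Nlgn1 had 2248 ± 64.4 and 2053 ± 55.6, with no overlap, a difference of -0.13 and an adjusted p of 0.0118. Cadm4 had 8413 ± 126 and 8088 ± 71.1, with no overlap, a difference of -0.06 and an adjusted p of 0.0871. Groups without overlap were found in these 3 of the 9 genes and in 19.6% of all genes. Cadm1 was higher in number 2, with a log2 difference of 0.16 and an adjusted p of 0.0102 in limma. So were Nrxn3, with 0.26 and 0.0151, and Nrxn2, with 0.06 and 0.0860. In each of these the libraries of the 2 numbers overlapped. For Cadm1 the means in numbers 1 and 2 were 2487 and 2605 in AM-Veh, and 2720.5 and 3260.2 in AM-Allo. Nrxn2 did not pass unadjusted without AM-Allo 1-2 or AM-Allo 2-1 (0.05 in both), nor Cadm4 without AM-Allo 1-1 (-0.05), and neither passed without the limma trend. The 8 astrocyte markers summed to 196206 to 208163 in number 1 and 233519 to 256022 in number 2, with 4 of the 8 higher and 2 lower at p under 0.05. Oligodendrocyte lineage markers summed to 42276 to 45308 in number 1 and 38365 to 39078 in number 2, with 5 of 8 lower and 1 higher. Mesenchymal markers summed to 988 to 2557 and 625 to 778, with 4 of 6 lower and 1 higher, and endothelial markers to 38.2 to 50.1 and 61.3 to 109.7. Neuron markers overlapped, at 41349 to 43824 and 40139 to 47079, with 2 of 7 higher. Their part in the member differences was not tested.

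Cadm1 was 9.37% higher with Allo in number 1, with means of 2487 and 2720.5, and 25.1% higher in number 2, with 2605 and 3260.2. The difference of these effects on the log2 scale was 0.19 ± 0.06 (SE), with an adjusted p of 0.309 in limma. Cadm3 was 2.50% higher in number 1 and 14.0% higher in number 2, with a difference of effects of 0.15 ± 0.07 and an adjusted p of 0.502. Cadm3 did not pass unadjusted without AM-Veh 1-1 (0.09), AM-Veh 2-2 (0.10), AM-Allo 1-2 (0.11), AM-Allo 2-1 (0.16) or AM-Allo 2-2 (0.15). These 2 of the 9 genes passed unadjusted, against 9.53% of all genes unadjusted and 0.0784% adjusted. Cadm2 was 5.54% higher in number 1 and 17.2% higher in number 2, a difference of effects of 0.15 that did not pass (adjusted p = 0.617). Nlgn1 was 4.95% higher in number 1 and -3.24% different in number 2, a difference of effects of -0.12 that did not pass (adjusted p = 0.543). For Nlgn2 the values were 4.08% and 3.25%. Nrxn3 was 0.560% and 11.9% higher, a difference of effects of 0.16 that did not pass (adjusted p = 0.769), and Nrxn2 2.31% and 6.42%, with 0.06 (adjusted p = 0.738).

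**Figure D4:**
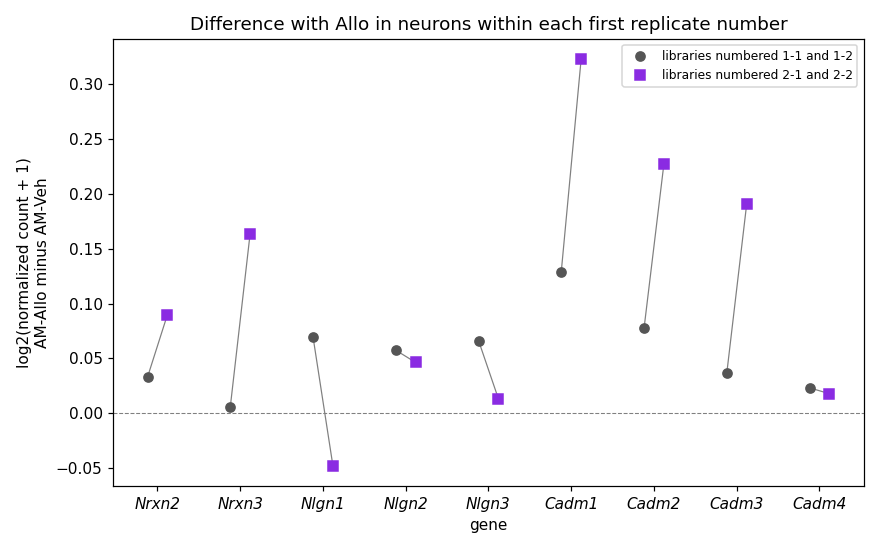
Difference between AM-Allo and AM-Veh in neuron cultures on the log2(normalized count + 1) scale, within libraries numbered 1-1 and 1-2 (circles) and 2-1 and 2-2 (squares), each from 2 against 2 libraries. Nrxn2, Nrxn3, Cadm1, Cadm2 and Cadm3 show larger values in number 2, and Nlgn1 is on opposite sides of 0.

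Across the 8 neuron libraries, Nlgn1, Nlgn3 and Cadm4 had like profiles, with Pearson correlations of their log2 values of 0.93 for Nlgn1 with Nlgn3 and 0.96 for Nlgn3 with Cadm4. Cadm1 correlated with Cadm2 at 0.82, with Cadm3 at 0.82 and with Nrxn2 at 0.80, and with Nlgn1 at -0.57. These are descriptions of 8 libraries that share replicate numbers and treatment. Among the 15305 tested genes that are not members, those most like Nrxn2 were Tbc1d15 (r = 0.97), Slc35a5 (r = 0.97) and Lrrc7 (r = 0.96), and those most like Cadm1 were Psd3 (r = 0.98), Runx1t1 (r = 0.98) and Adcy1 (r = 0.98). Adcy1 encodes an adenylyl cyclase, which makes cyclic AMP. Correlations above 0.9 were found for 27 of these 15305 genes with Nrxn2 and 106 with Cadm1, so the named genes are not singular. A link to cyclic AMP was not tested.

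Genes that work with these molecules were taken from 4 lists of 100 symbols in all, of which 96 could be tested in neuron cultures and 80 in astrocyte cultures. In neuron cultures 10 of the 96 were higher and 0 lower with Allo at an unadjusted p under 0.05, where 3.21% of all genes were higher and 5.69% passed in either direction. With the first-digit block 20 of the 96 passed, against 11.0% of all genes. The lists too were chosen with earlier results of these data known. Of extracellular partners 3 of 21 were higher, with a median log2 difference of 0.06. Cbln1, a secreted protein that bridges neurexins to delta-type glutamate receptors, had 139.9 ± 13.5 (SD, n = 4) in AM-Veh and 208 ± 22.4 in AM-Allo, with no overlap, a log2 difference of 0.57 ± 0.10 (SE) and an adjusted p of 0.217 in limma, which was 0.0223 with the first-digit block. Clstn2, a calsyntenin, had 470.1 ± 15.4 and 520.4 ± 25.8, with a log2 difference of 0.15 and an adjusted p of 0.781, and it did not pass unadjusted without AM-Veh 1-1 or AM-Allo 2-1 (0.12 in both). Of other adhesion molecules across the cleft 3 of 30 were higher, with a median of 0.02, among them Flrt3, a partner of latrophilins, with 553 ± 55.8 and 649 ± 24.7 and an adjusted p of 0.650. Of intracellular scaffolds 1 of 30 was higher, with a median of 0.01, and of proteases and splicing factors acting on neurexins and neuroligins 3 of 15, with a median of 0.0078.
In astrocyte cultures 0 of the 80 were higher and 2 were lower, where 7.01% of all genes passed in either direction. Mdga2, which binds neuroligins, went from 614 ± 37.8 (SD, n = 3) with vehicle to 544 ± 38.1 with Allo, and C1ql3, a secreted C1q-like protein, had 52.7 ± 16.8 and 33.7 ± 1.92, both with an adjusted p of 0.684 in limma. Their log2 differences were -0.18 and -0.59. Mdga2 did not pass unadjusted without AM-Veh 2 (-0.13) or AM-Allo 2 (-0.12), nor did C1ql3 when AM-Veh 1 (-0.35) or either of AM-Allo 1 and AM-Allo 3 (-0.57 each) was left out.

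The AM-Veh levels of the 2 cultures are given side by side, as CPM (normalized counts rescaled to an equal total in every library), from tables normalized separately, and were not tested against each other. Cadm1 stood at 114.9 ± 3.23 (SD, n = 4) in neuron cultures and 191 ± 2.97 (SD, n = 3) in astrocyte cultures. It was the one member with the larger value in astrocyte cultures, and the cell type behind this was not tested. Nrxn3 stood at 18.2 ± 1.65 and 0.221 ± 0.043, a ratio of 82.2. Its astrocyte level rests on only 4.4 to 6.38 normalized counts in an AM-Veh library, so the ratio is rough. Nrxn2 was at 763 and 137, Nlgn3 at 305 and 77.0, and Cadm4 at 369.8 and 94.3. The ranges of neuron and astrocyte libraries did not overlap for any of the 9. The share of all genes without such overlap was not counted, so this cannot be read as particular to the 9. Levels were not compared between genes, because transcript lengths were not used here.

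**Figure D5:**
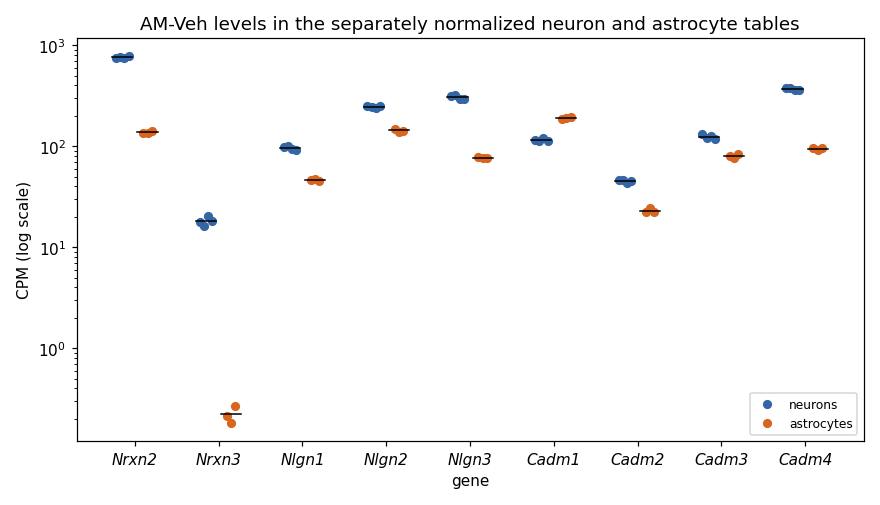
AM-Veh CPM, normalized counts rescaled to an equal library total (log axis), for the 9 genes in the neuron table (4 libraries) and the astrocyte table (3 libraries), with lines at the means. Cadm1 alone is at a larger value in the astrocyte table, and Nrxn3 shows the widest gap.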

How the data were processed

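RNA-seq was made from 8 neuron and 6 astrocyte libraries. According to the study's methods, poly(A)-selected stranded libraries were sequenced, and the authors estimated counts with Salmon 0.14 against rat Ensembl transcripts. The deposited normalized counts are a signal: estimated counts per gene that the authors divided by DESeq2 1.18.1 normalization factors, and the authors also deposited variance-stabilized log2 values. In the deposited log2 table of neurons the gene means of libraries numbered 1 and 2 are equal (largest difference 7.5e-09), so that difference had been removed. It was used only as an alternative.

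Values were analysed as log2(normalized count + 1) with limma 3.58.1 and a trend in R 4.3.3, over genes with a mean of at least 10, and p-values were adjusted by Benjamini and Hochberg. Because no raw counts were recovered (the low values came within 0.15 of whole multiples of 1 read for only 64.7 to 93.2% of values), no count test was run. Nothing in the labels says that libraries of a group came from separate cultures, so p-values measure the spread between these libraries. Scripts were tested on simulated data. Named partners were up to 4 genes a list and culture with p under 0.05 and no overlap, smallest p first. The members and lists were chosen with earlier results of these data known.

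Same-numbered AM-Veh and AM-Allo neuron libraries deviated together (r = 0.23 to 0.30 for all 4 numbers), so the numbers were taken to pair them. Libraries that share only the first digit correlated about as well (r = 0.19 to 0.24), and those with different first digits at -0.32 to -0.15, so the pairing is mostly one of the first digit. The pairing comes from the data, since the labels do not explain the numbers. Alternatives were other pseudocounts, filters, scalings, variance-stabilized values, replicate blocks and single libraries left out.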

Additional observations from a re-analysis of the deposited data

Results flagged for a closer look

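The effect of Allo on Cadm1 in neuron cultures differed between libraries numbered 2 and 1, by 0.19 on the log2 scale (adjusted p = 0.309 in limma), with more increase in number 2. The effect on Cadm3 differed by 0.15 (adjusted p = 0.502 in limma) in the same direction. Both were picked out by the test of the difference itself, at an unadjusted p under 0.05. The astrocyte marker sum, 196206 to 208163 in number 1 and 233519 to 256022 in number 2, stands beside both, as do those of the oligodendrocyte lineage (42276 to 45308 and 38365 to 39078), mesenchymal (988 to 2557 and 625 to 778) and endothelial markers (38.2 to 50.1 and 61.3 to 109.7). Their part was not tested. A test of gap over range picked out no single library in any of the 18 groups of 4 neuron libraries tested (9 genes in AM-Veh and AM-Allo). With 4 libraries a group such a test has little power, so it does not show that no single library matters.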

How the results depend on the processing

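The count of members with p under 0.05 in neuron cultures was 3, and it was 5 with the variance-stabilized values, 5 with a replicate block by the first digit of the number and 5 with both. Calls over all genes rose as well, from 872 to 2204, 1684 and 1694 of 15314. The count of members stayed between 2 and 4 under the other settings. In astrocyte cultures the count was 0, and it was 1 with upper-quartile scaling and 1 with quantile normalization, where Cadm3 passed, and ranged from 0 to 2 when a library was left out. The replicate block by the whole number left the astrocyte count at 0, with correlations of same-numbered astrocyte libraries of -0.0070 to 0.024, so these share only a number. The count of effects that differed between first numbers was 2, it was 1 without the limma trend, and it ranged from 1 to 3 when a library was left out. The count of members that differed between numbers was 6 and was 4 without the limma trend and ranged from 5 to 6 without a library.

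Directions changed in uncalled values, given as ranges over the libraries left out. In neuron cultures Nlgn1 ranged from -0.023 (AM-Allo 1-2) to 0.052, and was also negative if AM-Veh 2-2 or AM-Allo 1-1 was dropped. In astrocytes Nrxn2 ranged from -0.023 (AM-Allo 2) to 0.085, and Nlgn2 from -0.0045 (AM-Veh 2) to 0.035, with -0.00095 under upper-quartile scaling. Between first digits Cadm2 ranged from -0.028 (AM-Allo 2-2) to 0.047. The difference of effects ranged from -0.033 to 0.011 in Nlgn2 and from -0.025 to 0.014 in Cadm4. The cause was not tested. None of these values was past the threshold in the reported fit.

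Levels by shortest transcript were not run because no transcript lengths were given, and the variance-stabilized values are void for the comparison between numbers, which they had removed. Depth limits Nrxn3 in astrocytes, at fewer than 10 normalized counts.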
